A study of Mus musculus with 4 samples.

Results

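Liver zonation markers are genes whose mRNA is concentrated in hepatocytes at a particular position along the liver lobule. The 10 genes described here were chosen by name. They were 6 pericentral markers (Glul, Cyp2e1, Cyp1a2, Slc1a2, Oat and Axin2) and 4 periportal markers (Cyp2f2, Hsd17b13, Gls2 and Sds), and all 10 were among the 8797 genes listed for liver mRNA-seq. All 10 also had a B6-allele frequency, which was given for 3632 genes. Livers came from 4 female F1 hybrids at 5 months of age, made by crossing the inbred strains B6 and MSM in both directions. 2 mice were born to an MSM mother and sired by a B6 male (MSM-mother mice), 2 came from the reverse mating (B6-mother mice), and no treatment is named. Every mouse therefore carried a B6 and an MSM chromosome set, and the groups differed in which strain was the mother. The study sequenced these libraries to relate allelic differences in expression to allelic differences in histone acetylation, and zonation was not part of its design.

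Blood flows through the liver lobule from the portal tract to the central vein, and hepatocytes along this path carry out different tasks. Periportal hepatocytes take up amino acids, break down glutamine and make glucose and urea, whereas pericentral hepatocytes make glutamine from the remaining ammonia and hold much of the cytochrome P450 activity. Endothelial cells of the central vein release Wnt ligands, and β-catenin with TCF/LEF factors drives many of the pericentral genes. The libraries were made from bulk tissue, so position within the lobule was not measured, and fewer cells of a type cannot be told apart from less RNA per cell.

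The 10 genes lie on 7 chromosomes and are protein-coding in the GENCODE M21 annotation of mm10. In the pericentral group, Glul lies at chr1:153899944-153909723 (plus strand), Cyp2e1 at chr7:140763739-140774987 (plus), Cyp1a2 at chr9:57676937-57683703 (minus), Slc1a2 at chr2:102658659-102790784 (plus), Oat at chr7:132557478-132576398 (minus) and Axin2 at chr11:108920349-108950783 (plus). In the periportal group, Cyp2f2 lies at chr7:27119909-27133660 (plus), Hsd17b13 at chr5:103955440-103977410 (minus), Gls2 at chr10:128194457-128210004 (plus) and Sds at chr5:120476526-120483932 (plus). Oat shares its strand and part of its span with an annotated transcript of Fgfr2, and Glul with Mir8114. Genes on the opposite strand overlap Glul, Slc1a2, Axin2, Cyp2f2, Gls2 and Sds, and the libraries and the alignment kept the strand.

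Promoter windows from 250 bases before to 50 bases after the start site were available for 8 of the 10 genes (RefSeq, GRCm38.p6) and were searched on both strands for CTTTGAA and CTTTGAT, the core letters bound by TCF/LEF factors. The core was found in 3 of 6 pericentral windows (Cyp2e1, Cyp1a2 and Slc1a2) and in 0 of the 2 periportal windows, those of Cyp2f2 and Hsd17b13, whereas 8.65% of all 32851 promoter windows held it. The 3 windows with a core are shown with that of Cyp2f2 for contrast, 5′ to 3′ on the strand of the gene, at chr7:140763569-140763868 for Cyp2e1, chr9:57683606-57683905 for Cyp1a2, chr2:102706188-102706487 for Slc1a2 and chr7:27119705-27120004 for Cyp2f2. The pericentral windows of Glul, Oat and Axin2, which held no core either, are not shown. The Slc1a2 window lies inside the annotated span of the gene. Capitals mark every match to a searched motif.
Cyp2e1: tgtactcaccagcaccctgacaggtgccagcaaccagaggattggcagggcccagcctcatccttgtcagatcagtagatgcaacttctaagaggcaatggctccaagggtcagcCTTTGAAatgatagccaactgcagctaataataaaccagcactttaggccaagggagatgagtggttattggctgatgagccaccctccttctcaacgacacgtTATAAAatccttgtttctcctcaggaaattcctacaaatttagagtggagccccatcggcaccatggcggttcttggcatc
Cyp1a2: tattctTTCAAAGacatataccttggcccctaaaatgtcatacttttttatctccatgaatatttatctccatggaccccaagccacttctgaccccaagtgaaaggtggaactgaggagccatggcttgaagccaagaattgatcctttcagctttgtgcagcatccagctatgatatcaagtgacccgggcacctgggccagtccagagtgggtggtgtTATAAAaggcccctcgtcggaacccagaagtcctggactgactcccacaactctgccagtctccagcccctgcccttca
Slc1a2: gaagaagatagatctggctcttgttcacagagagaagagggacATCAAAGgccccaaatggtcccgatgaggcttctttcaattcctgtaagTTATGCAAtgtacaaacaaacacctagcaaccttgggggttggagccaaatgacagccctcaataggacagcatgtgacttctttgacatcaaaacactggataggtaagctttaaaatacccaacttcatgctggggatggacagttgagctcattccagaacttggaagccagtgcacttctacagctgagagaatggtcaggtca
Cyp2f2: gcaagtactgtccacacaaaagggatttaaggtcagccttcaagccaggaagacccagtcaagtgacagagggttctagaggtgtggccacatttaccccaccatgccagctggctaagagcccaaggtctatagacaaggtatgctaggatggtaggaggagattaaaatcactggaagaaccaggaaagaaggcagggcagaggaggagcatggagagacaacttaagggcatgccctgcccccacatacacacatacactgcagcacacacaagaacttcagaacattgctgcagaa

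In the Cyp2e1 window the core CTTTGAA began 135 bases before the start site. In the Cyp1a2 window the match read TTCAAAG on the gene strand and began 244 bases before it. In the Slc1a2 window it read ATCAAAG and began 207 bases before it. The letters TATAAA of the TATA box were found in 13.6% of all windows and in those of Cyp2e1 and Cyp1a2, where they began 31 and 29 bases before the start site. The C/EBP letters TTGCNNAA were in 10.8% of all windows and matched in Slc1a2 as TTATGCAA, which began 158 bases before the start site. The letters searched for HNF4 (CAAAGTCCA, 0.475% of all windows), for HNF1 (0.399%) and for the AhR core (GCGTG, 32.4%) were in none of the 8 windows. A match is a stretch of letters in the reference genome of B6 and was not tested for binding.

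The expression value was the FPKM, the fragments assigned to a gene scaled to transcript length and to the fragments mapped in the library, so levels can be compared between genes. The B6-allele frequency was the fraction of allele-assigned reads of a gene that came from the B6 allele. No read counts were among the values, so the depth behind each value is unknown and single frequencies carry no interval. Over all listed genes the median FPKM was 11.2 to 11.7 in the 4 mice, the summed FPKM was 529024 to 671875, and 15 to 27 genes were listed at 0. Hepatocyte markers were high, with 8 of 9 listed and a summed FPKM of 12696 to 17344, led by Apoa1 and Ttr, and Alb was not listed. Of 7 cholangiocyte markers Spp1 alone was listed, with 9.51 to 14.6 FPKM.

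Ordered by the mean FPKM of the mice in which a gene was above 0, the markers ranked from Cyp2e1 (5708, from 2 mice) through Cyp2f2 (936), Oat (754), Cyp1a2 (542), Glul (388), Sds (357), Gls2 (289), Hsd17b13 (170) and Slc1a2 (90.2) to Axin2 (2.65). Ranges over the mice overlapped between Cyp2f2 and Oat, Oat and Cyp1a2, Glul and Sds, and Sds and Gls2. They did not overlap between the other neighbours in this order. The metabolic enzymes of both zones thus stood far above Axin2, the signalling gene of the set.

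**Figure D1:**
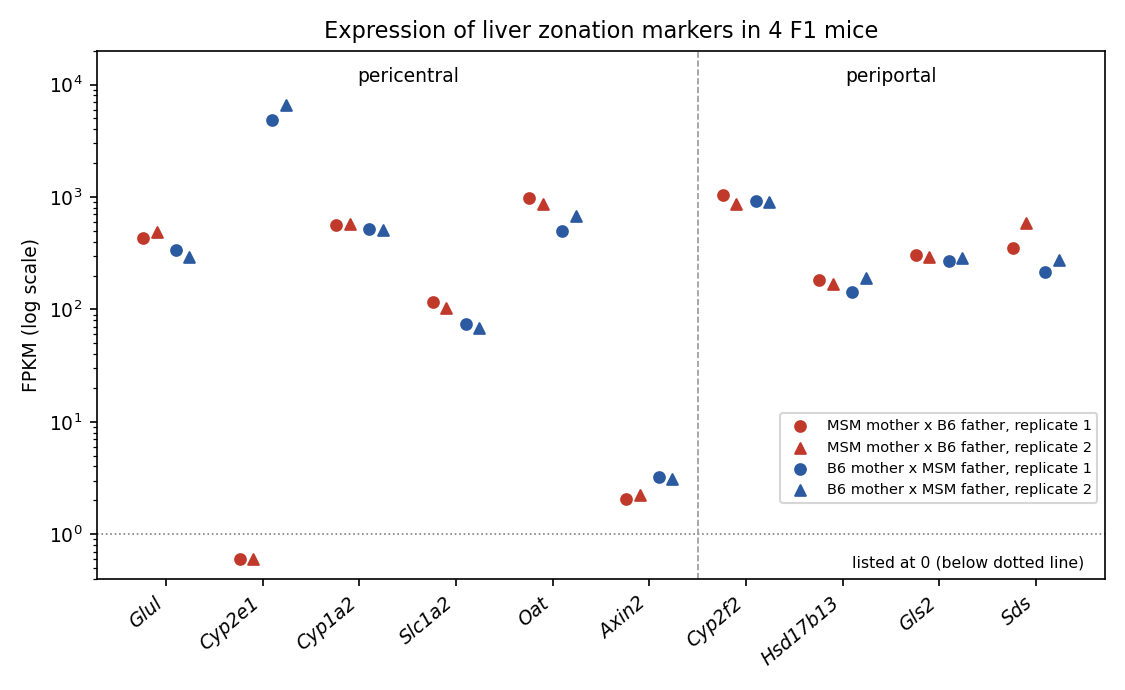
FPKM of each marker in each of the 4 mice, on a log axis, with points for the MSM mother x B6 father cross in red and for the B6 mother x MSM father cross in blue (circles for replicate 1, triangles for replicate 2). The 2 points below the dotted line are Cyp2e1 in the MSM-mother mice, where it was listed at 0, and the other markers lie between 2.07 and 1045 FPKM.

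Cyp2e1, a cytochrome P450 that oxidizes ethanol and other small molecules, stood apart from the other markers. It was listed at 0 in both MSM-mother mice and at 4876 and 6541 FPKM in B6-mother replicates 1 and 2, where it ranked 7 of 8797 genes in both mice. The same mice with 0 FPKM had a Cyp2e1 allele frequency of 0.516 and 0.546, close to the 0.523 and 0.539 of the other cross. A frequency needs reads assigned to the gene, so the listed 0 and the frequency of these mice do not describe the same amount of RNA, and no fold change is given. Of the 7 genes at or above the lower Cyp2e1 value in both B6-mother mice, 5 were above 0 in every mouse and at least at 4939 FPKM in the MSM-mother mice. The other 2 were Cyp2e1 itself and Mup9, a major urinary protein gene, which was likewise listed at 0 in both MSM-mother mice, at 15147 and 13995 FPKM in the others, and with a frequency in all 4 mice. Of the 33 genes listed at 0 in any mouse, these were the only 2 with a frequency, and the names of the other 31 begin with Mir, Snora, Snord or AF. Whether the Cyp2e1 value of 0 is an estimate that failed was not tested.

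Glul encodes glutamine synthetase, which is known from the hepatocytes next to the central vein. Its FPKM was 436 and 485 in MSM-mother replicates 1 and 2 and 334 and 295 in the B6-mother replicates. Both MSM-mother mice lay above both B6-mother mice, by a mean of 1.46 times. The difference in log2(FPKM + 1) was 0.55 (SE 0.17, n = 2 mice per cross, limma adjusted p = 0.483), so it did not pass the test over all genes.

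Slc1a2 encodes a glutamate transporter of pericentral hepatocytes. Its FPKM was 116 and 103 in MSM-mother mice and 73.6 and 68.2 in B6-mother mice. The groups did not overlap, and the ratio of the means was 1.54. The difference was 0.62 (SE 0.15, limma adjusted p = 0.397), the smallest adjusted p among the markers other than Cyp2e1. Oat, ornithine aminotransferase, had an FPKM of 974 and 871 in MSM-mother mice and 499 and 674 in B6-mother mice. The groups were again apart, with a difference of 0.67 (SE 0.21, limma adjusted p = 0.495).

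Cyp1a2, the cytochrome P450 of caffeine metabolism, had an FPKM of 563 and 577 in MSM-mother mice and 516 and 511 in B6-mother mice. These values lay apart but close together, with a difference of 0.15 (SE 0.16, limma adjusted p = 0.761). Axin2, a brake on Wnt signalling that is itself a β-catenin target gene, went the other way, with 2.07 and 2.22 FPKM against 3.20 and 3.12. Its difference was -0.40 (SE 0.13, limma adjusted p = 0.489), and the scale log2(FPKM + 1) understates changes of a gene at this level.

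Among the periportal genes, Sds had the largest difference. It encodes serine dehydratase, an enzyme that feeds serine into glucose production, and its FPKM was 352 and 583 in MSM-mother mice and 214 and 278 in B6-mother mice. The groups did not overlap, but the MSM-mother mice also differed widely from each other, and the difference was 0.89 (SE 0.28, limma adjusted p = 0.492). It was 0.53 without MSM-mother replicate 2 and 1.25 without MSM-mother replicate 1. Gls2, the liver glutaminase, had 305 and 294 FPKM against 269 and 288, a difference of 0.10 (SE 0.15, limma adjusted p = 0.831). Its groups lay apart by less than the MSM-mother mice lay from each other.

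Cyp2f2, a periportal cytochrome P450, had 1045 and 873 FPKM in MSM-mother mice and 923 and 901 in B6-mother mice. The values of the crosses overlapped, and the difference was 0.07 (SE 0.19, limma adjusted p = 0.917). Hsd17b13, a protein of hepatocyte lipid droplets, had 182 and 168 FPKM against 143 and 189, which overlapped as well, and its difference was 0.09 (SE 0.19, limma adjusted p = 0.888). With quantile normalization the small differences of Cyp2f2 and Hsd17b13 turned negative, to -0.09 and -0.02. Those of Cyp1a2 and Gls2 fell to 0.05 and 0.01, and those of Glul and Oat to 0.40 and 0.53.

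**Figure D2:**
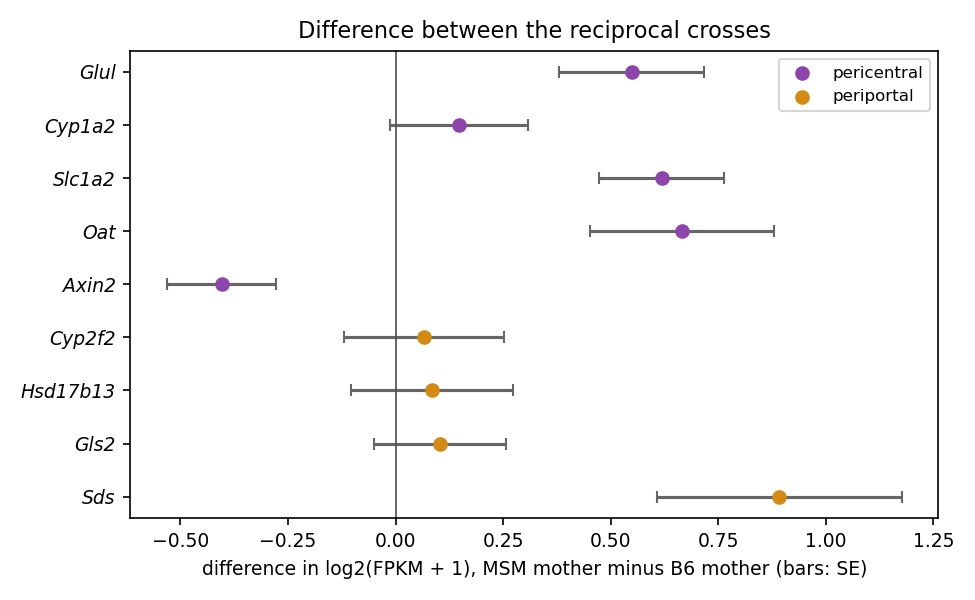
Difference in log2(FPKM + 1) between the crosses for the 9 markers without a listed 0, as the mean of the MSM-mother mice minus that of the B6-mother mice, with bars for the SE from limma. Sds (0.89), Oat (0.67), Slc1a2 (0.62) and Glul (0.55) lie to the right of 0 and Axin2 (-0.40) to the left, and the bars of Cyp1a2, Cyp2f2, Hsd17b13 and Gls2 reach 0.

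Counted over the set, 6 of 10 markers were higher in both MSM-mother mice than in both B6-mother mice (Glul, Cyp1a2, Slc1a2, Oat, Gls2 and Sds), where 23.0% of all 8797 genes were. In the opposite direction, 2 of 10 markers were lower in both (Cyp2e1 and Axin2), where 19.4% of all genes were. Since Cyp2e1 counts as lower only by its listed 0, the counts without it were 6 of 9 higher and 1 of 9 lower. The 6 higher markers were 4 of 6 pericentral and 2 of 4 periportal genes, so both zones contributed. Each of the 6 had a mean FPKM of at least 90.2, while the median over all genes was 11.2 to 11.7. The share of 23.0% was thus not matched for level. Summed FPKM was also largest in MSM-mother replicate 1, at 671875 against 529024 to 572780 in the other mice. The part of expression level in these counts was not tested. At the adjusted threshold of 0.05 in limma, Cyp2e1 was the only marker called, through its listed values of 0, and 0.0455% of all genes were called. These were 4 genes, all listed at 0 in both MSM-mother mice, and when genes with a listed 0 were left out, 0 of 8764 genes passed, with 780 of 8797 at an unadjusted p under 0.05 in the full table. The latter included 5 markers other than Cyp2e1 (Glul, Slc1a2, Oat, Axin2 and Sds). The median difference over all genes was 0.02 in log2(FPKM + 1), which does not show whether abundant genes shifted. With quantile normalization the differences of the 6 higher markers fell, as from 0.67 to 0.53 for Oat. An exact permutation test of 2 mice against 2 cannot give a two-sided p below 0.333, so the limma values rest on the spread shared across genes.

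The balance of the zones was described in each mouse as the mean log2(FPKM + 1) of the pericentral markers minus that of the periportal markers. Without Cyp2e1 it was -1.30 and -1.39 in MSM-mother replicates 1 and 2 and -1.28 and -1.47 in the B6-mother replicates. The crosses overlapped, and their means differed by 0.03. With Cyp2e1 included the values were -2.51 and -2.60 against -0.39 and -0.51, and the whole of this separation came with the listed 0 of that gene. The higher pericentral values of Glul, Slc1a2 and Oat were thus matched in this balance by Axin2, which was lower, and by Sds, which was higher.

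Markers of other liver cells were read in the same mice, and none passed the limma threshold between the crosses. Of 11 Kupffer cell markers 10 were listed, Adgre1 under its older symbol Emr1, and 9 of them were lower in both MSM-mother mice, where 19.4% of all genes were. Their summed FPKM was 260 and 224 in those mice against 328 and 292, led by C1qb and Cd5l, and Marco was not listed. All 10 sinusoidal endothelial markers were listed and 7 were lower in both MSM-mother mice (19.4% of all genes), with sums of 208 and 189 against 226 and 228, led by Clec4g and Fcgr2b. Of 10 blood cell markers 3 were listed, and 2 of these 3 were lower in both MSM-mother mice (19.4% of all genes). The 3 had sums of 302 and 122 against 761 and 444, led by Hba-a2 and Hba-a1, which are near-identical copies. Stellate cell markers (5 of 9 listed) had sums of 142 and 127 against 107 and 123, led by Dcn and Colec11. The crosses overlapped in Clec4g, Fcgr2b, Colec11, Hba-a1 and Spp1. The part of these cells in the values of Axin2 and the other zonation markers was not tested.

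The wider set of zonated genes was read from lists of further pericentral and periportal genes. Of 24 further pericentral genes, all listed, 7 were higher and 2 lower in both MSM-mother mice (23.0% and 19.4% of all genes), 5 had an unadjusted p under 0.05 (780 of all 8797 genes did) and 0 passed the limma threshold, and the median difference was 0.14. The most abundant were 3 cytochrome P450 genes. Cyp3a11 had 2313 and 1748 FPKM in MSM-mother mice and 818 and 1470 in B6-mother mice, with a difference of 0.87 (SE 0.33, limma adjusted p = 0.546). Cyp2c29 had 1510 and 1329 against 1218 and 1841, and Cyp2a5 had 1110 and 1676 against 899 and 1760, and in both the crosses overlapped. These genes have close copies, and since a read was placed at a single position, their values are uncertain.

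Of 22 further periportal genes, 21 were listed, 9 were higher and 6 lower in both MSM-mother mice (23.0% and 19.4% of all genes), 6 had an unadjusted p under 0.05, 0 passed the limma threshold, and the median difference was 0.04. Cps1, the first enzyme of the urea cycle, had 1522 and 1855 FPKM against 1731 and 1571, which overlapped. Vtn, the plasma protein vitronectin, had 1628 and 1454 against 1736 and 1721. Pck1, a rate-limiting enzyme of glucose production, had 990 and 2045 FPKM in MSM-mother mice and 405 and 852 in B6-mother mice, a difference of 1.27 (SE 0.47, limma adjusted p = 0.539). Like Sds, Pck1 was highest in MSM-mother replicate 2 and lowest in B6-mother replicate 1.

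Of 30 genes of the Wnt/β-catenin pathway of zonation, 21 were listed, 2 were higher and 10 lower in both MSM-mother mice (23.0% and 19.4% of all genes), 3 had an unadjusted p under 0.05 and 0 passed the limma threshold. Their median difference was -0.14, and the ligand Wnt9b and the receptor Lgr5 were among the 9 genes not listed. Ctnnb1, the gene of β-catenin itself, had 112 and 102 FPKM against 119 and 114, a difference of -0.13 (SE 0.14, limma adjusted p = 0.771). Csnk1a1, a kinase of the complex that degrades β-catenin, had 35.8 and 39.3 against 35.6 and 35.8, and Notum, a secreted enzyme that inactivates Wnt, had 36.0 and 32.4 against 32.2 and 39.99. The crosses overlapped for both.

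The allele frequencies showed which strain's copy of each marker gave more mRNA in the same livers. For the test, frequencies below 0.01 or above 0.99 were set to those limits, log2 odds of the B6 allele were taken, and their average over the crosses was compared with equal use. In 3 of 10 markers this mean differed from equal use at an adjusted p under 0.05 (limma), and 36.2% of the 3632 genes did, 822 toward B6 and 494 toward MSM. The share of the markers called was thus close to that of all genes. They were Oat of the pericentral group and Gls2 and Sds of the periportal group.

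Oat had frequencies of 0.598 and 0.589 in MSM-mother mice and 0.594 and 0.607 in B6-mother mice. All 4 mice lay above 0.5 within a narrow range (mean 0.597 ± 0.0075, SD, n = 4), and the log2 odds were 0.57 (SE 0.04, limma adjusted p = 0.00712), or 1.48 B6 reads for each MSM read. Gls2 also leaned toward B6, with 0.576 and 0.557 against 0.575 and 0.569 (mean 0.569 ± 0.0085, SD, n = 4). Its log2 odds were 0.40 (SE 0.05, limma adjusted p = 0.0132), a ratio of 1.32. Sds leaned toward MSM in every mouse, with 0.410 and 0.446 against 0.404 and 0.431 (mean 0.423 ± 0.0192, SD, n = 4), and its log2 odds were -0.45 (SE 0.07, limma adjusted p = 0.0203), a ratio of 0.731. Gls2 and Sds, both amino acid enzymes of the periportal zone, were thus called in opposite directions. The calls depended on single mice, while the log2 odds stayed between 0.55 and 0.59 for Oat, 0.37 and 0.43 for Gls2 and -0.50 and -0.40 for Sds when each mouse was left out. Leaving out B6-mother replicate 1 gave limma adjusted p-values of 0.0614, 0.093 and 0.109 for Oat, Gls2 and Sds, leaving out replicate 2 gave 0.066, 0.0881 and 0.0916, and leaving out MSM-mother replicate 1 gave 0.0519, 0.0658 and 0.0774. Without MSM-mother replicate 2, Oat kept an adjusted p of 0.0477, while Gls2 had 0.0578 and Sds 0.0618.

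Cyp2e1, Slc1a2 and Hsd17b13 also had tight frequencies, nearer to 0.5, with SDs above those of Oat and Gls2. Cyp2e1 lay between 0.516 and 0.546 (mean 0.531 ± 0.0140, SD, n = 4), above 0.5 in 4 of 4 mice, and its log2 odds were 0.18 (SE 0.06, limma adjusted p = 0.0903). Slc1a2 had 0.494 and 0.461 against 0.469 and 0.457 (mean 0.470 ± 0.0167), below 0.5 in every mouse, and its log2 odds were -0.17 (SE 0.06, limma adjusted p = 0.101). Hsd17b13 had 0.461 and 0.464 against 0.472 and 0.488 (mean 0.471 ± 0.0122), and its log2 odds were -0.16 (SE 0.04, limma adjusted p = 0.0693). Each of these leaned the same way in all mice without passing the threshold. Hsd17b13 passed it when the test was limited to genes of at least 10 mean FPKM (limma adjusted p = 0.0418) or when each mouse was shifted to a median log2 odds of 0 (0.0427). Axin2 had 0.483 and 0.589 against 0.529 and 0.509 (mean 0.528 ± 0.0453) and 0.16 in log2 odds (SE 0.13, limma adjusted p = 0.387).

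**Figure D3:**
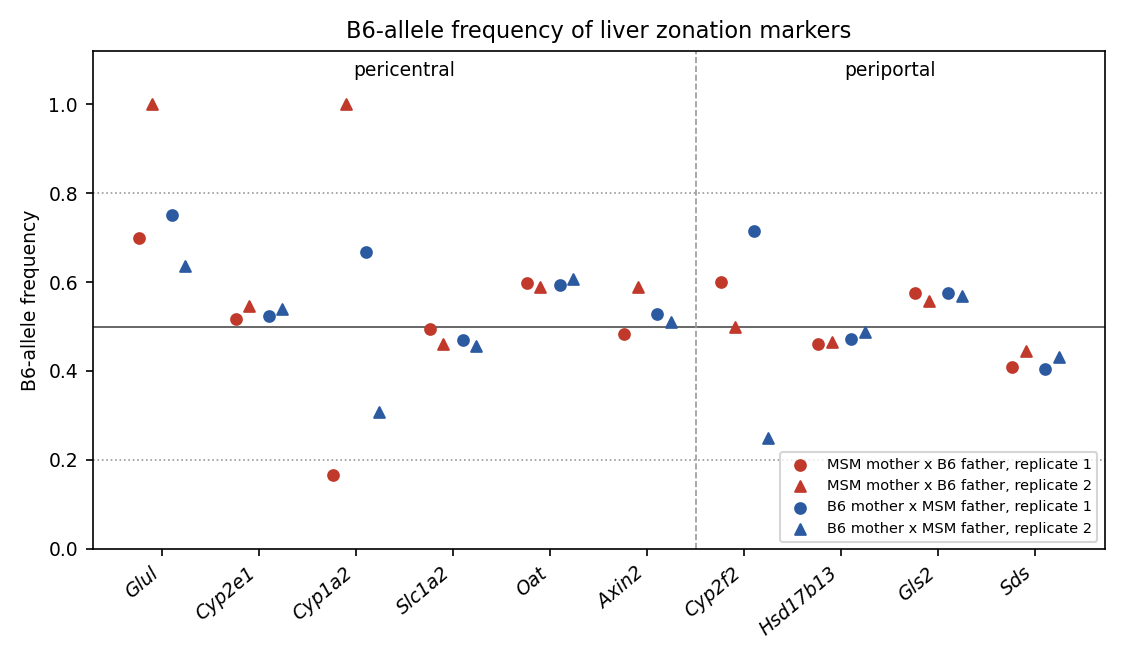
B6-allele frequency of each marker in each of the 4 mice, with the solid line at equal use of the alleles (0.5) and dotted lines at 0.8 and 0.2. Points of 7 markers lie close together, between 0.404 and 0.607, while those of Glul, Cyp1a2 and Cyp2f2 are spread from 0.167 to 1.

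Glul, Cyp1a2 and Cyp2f2 had frequencies that differed widely between mice of the same cross. Cyp1a2 had 0.167 and 1 in MSM-mother replicates 1 and 2 and 0.667 and 0.308 in B6-mother mice, so that the mice of each cross lay on opposite sides of 0.5. Cyp2f2 had 0.6 and 0.5 against 0.714 and 0.25. Glul had 0.7 and 1 against 0.75 and 0.636, above 0.5 in all 4 mice. The SD over the mice was 0.375 for Cyp1a2, 0.198 for Cyp2f2 and 0.159 for Glul, at percentiles 99, 97.7 and 96.9 of the SDs of all genes, whose median was 0.0272. Their log2 odds were 1.03 (SE 1.79), 0.08 (SE 0.58) and 2.56 (SE 1.06), with limma adjusted p-values of 0.672, 0.925 and 0.152, so no allelic difference could be read from them. Tested on the frequency itself, Glul had an adjusted p of 0.0391 in limma, with a mean 0.272 above 0.5, and it also passed without MSM-mother replicate 1 (0.0404).

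The spread of these genes was large for their expression. Among 319 genes of at least 100 mean FPKM that lay beyond 100 Mb on chromosomes 1 to 15 and X, or beyond 10 Mb on chromosomes 16 to 19, the median SD of the frequency was 0.0121. The limits of 100 and 10 Mb were taken from earlier results of these data, so the shares on either side of them are descriptive and no test of position. Over all genes beyond these coordinates, 131 of 3383 (3.87%) had frequencies that ranged over at least 0.25, whereas 76 of the 92 genes below them (82.6%) did, with a median SD of 0.291. Cyp1a2 and Cyp2f2 lie below the coordinate on their chromosomes and had such a range. Glul lies beyond it and was among the 13 of 319 abundant genes there (4.08%) with a range of at least 0.25, and the remaining 7 markers lie beyond it with ranges below 0.25. The frequencies of Glul, Cyp1a2 and Cyp2f2 equal fractions of small whole numbers, such as 0.6, 0.5 and 0.25 for Cyp2f2. Few reads can give such values, and so can many. The number of reads behind each frequency is not given, and its part in this spread was not tested.

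**Figure D4:**
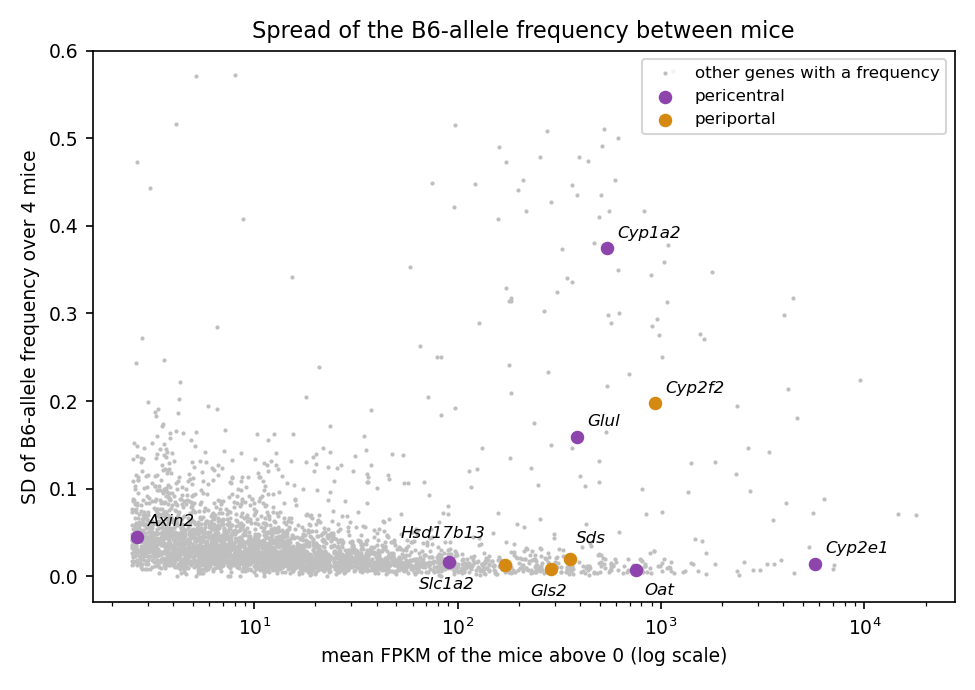
SD of the B6-allele frequency over the 4 mice against the mean FPKM of the mice above 0 (log axis), for the 3632 genes with a frequency (grey) and the markers (purple for pericentral, orange for periportal). Cyp1a2, Cyp2f2 and Glul lie at SDs of 0.375, 0.198 and 0.159, and the other 7 markers lie between 0.0075 and 0.0453.

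By the thresholds the study used for allele-biased expression, a mean frequency of at least 0.8 or at most 0.2, 0 of 10 markers were biased. As counted here, 116 of 3632 genes (3.19%) were. The paper reports a larger number of genes at these thresholds, and the reason for the difference was not tested. Glul came nearest, with a mean of 0.772, and passed 0.8 without MSM-mother replicate 1 or without B6-mother replicate 2 (1 of 10 markers in each case), and the other 9 markers had a mean between 0.4 and 0.6. The median of the mean frequency over all genes was 0.51, and the median of the log2 odds was 0.06. The frequency did not differ between the crosses in any marker at the adjusted threshold (0 of 10, limma adjusted p from 0.901 to 1), where 0.0826% of all genes did, and 190 of 3632 genes had an unadjusted p under 0.05. For Oat, Gls2 and Sds the direction was the same with either strain as the mother.

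Among the wider zonated genes, allelic imbalance was called in 10 of 16 further pericentral genes with a frequency, 8 toward B6 and 2 toward MSM (limma, adjusted p under 0.05), against 36.2% of all genes, and the median log2 odds were 0.35. The 5 with the largest log2 odds were the glutathione transferases Gstm3 (5.33, adjusted p = 0.00393) and Gstm2 (2.76, 0.00193), the cytochrome P450 genes Cyp2c50 (2.03, 0.00153) and Cyp3a11 (-1.88, 0.00252), and the carboxylate transporter Slc13a3 (1.29, 0.00802), all from limma. The first 4 belong to families with close copies, so their allele values are uncertain. The same holds for Gstm1 (0.41, adjusted p = 0.0206) and Cyp2c29 (-0.62, 0.0357), which limma also called. The count of 10 of 16 rests in part on these genes. Of 12 further periportal genes with a frequency, 3 were called toward B6 and 1 toward MSM, a share near the 36.2% of all genes. Cdh1, the gene of E-cadherin, reached 3.71 in log2 odds (SE 0.15, limma adjusted p = 0.00315), and its B6 share was 0.938 and 0.946 against 0.931 and 0.891. Its expression was low, at 2.87 and 1.27 FPKM in MSM-mother mice and 4.23 and 2.97 in B6-mother mice. The others called were Gldc (0.56) and Pck1 (0.46) toward B6, and Etnppl (-0.69) toward MSM.

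Of 12 Wnt pathway genes with a frequency, 1 was called toward B6 and 3 toward MSM, again near the 36.2% of all genes, and the median log2 odds were -0.12. Ctnnb1 leaned toward MSM in every mouse, with frequencies of 0.417 and 0.422 against 0.412 and 0.389 and -0.52 in log2 odds (SE 0.05, limma adjusted p = 0.00948). Lgr4, a receptor for R-spondins, had log2 odds of -0.40, and Tbx3, a target gene in pericentral hepatocytes, had -0.55. Tcf7l2, a TCF/LEF factor that works with β-catenin, was the gene called toward B6, at 0.60 (SE 0.05, limma adjusted p = 0.00777), with 0.605 and 0.609 against 0.586 and 0.609. No gene of the 3 lists differed in frequency between the crosses at the adjusted threshold of limma.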

How the data were processed

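Poly(A) mRNA libraries of 4 livers were trimmed by the authors with Trim Galore! and aligned with TopHat2 to an mm10 genome carrying N at SNP positions, keeping 1 alignment per read. SNPsplit assigned reads to alleles and Cuffdiff counted them per gene. Tool versions are not given in the sources used here. For each gene and mouse the authors deposited an FPKM and, as a fraction, the B6-allele frequency. Cross and replicate came from the sample labels.

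The markers and gene lists were chosen with earlier results of these data known. Expression was tested on log2(FPKM + 1) for genes of mean FPKM 1 or more with a variance trend, and allele use on log2 odds, each with limma 3.58.1 in R 4.3.3 over the whole table, two-sided, with Benjamini-Hochberg adjustment at 0.05. The fits were tested on simulated data in which 200 genes were changed. These changes were larger than the imbalances called in the markers and the expression differences given for them. Power at the smaller sizes was not tested. Of the further lists, the 3 genes of highest mean FPKM and the genes called (at most 5, by size) are named, and of the cell type lists the 2 of highest mean FPKM. Genes named as not listed fall outside this rule. Gstm1, Mup9, Fgfr2, Mir8114 and the genes of the closing section were chosen after their values or positions were seen. Of the genes with a frequency, 3475 had a position in GENCODE M21. The alternatives were other pseudocounts, filters, normalizations, limits, scales and thresholds, a block for the replicate number and fits without each mouse. Tables and plots used Python 3.11.15, numpy 2.4.6, pandas 2.3.3 and matplotlib 3.10.9.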

Additional observations from a re-analysis of the deposited data

How the results depend on the processing

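With 2 mice per cross and no read counts, depth and counting error are unknown, and nothing says that equal replicate numbers share a litter or day. Deviations of equally numbered mice correlated at 0.00375 for expression and 0.146 for log2 odds. A replicate block called 285 genes between the crosses in place of 4 and 775 in place of 1316 for imbalance, and changed no call among the markers.

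For expression, leaving out genes with a listed 0 (chosen after seeing the data) left 0 genes and 0 markers called by limma, and quantile normalization turned Cyp2f2 to -0.0857 and Hsd17b13 to -0.0219. Leaving out each mouse in turn gave 13 to 23 genes called, and ranges of -0.0636 to 0.196 for Cyp2f2 and -0.117 to 0.287 for Hsd17b13. The zonal balance differed between the crosses by -2.10 with Cyp2e1, by -2.68 with a pseudocount of 0.1, by -12.53 for Cyp2e1 against Cyp2f2, and by 0.0287 with Cyp2e1 left out (chosen after seeing the data). The first 3 of these values are set by the pseudocount through the listed 0 of Cyp2e1.

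For imbalance, 850 genes were called among those of at least 10 mean FPKM. Leaving out each mouse gave 181 to 514 genes and 0 to 1 markers called, with log2 odds of -1.20 to 3.27 for Cyp1a2 and -0.646 to 0.807 for Cyp2f2. Over all alternatives the limma adjusted p was 0.00477 to 0.066 for Oat, 0.00849 to 0.093 for Gls2 and 0.015 to 0.109 for Sds. Of 89 values of the markers, 11 lost and 4 gained a call.

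For the frequency between the crosses, 1 gene was called with wider limits on the frequency, 1 gene among those of at least 10 mean FPKM, and 0 to 6 genes when each mouse was left out, with 0 markers called throughout. In the last case the difference in log2 odds ran from -0.0882 to 0.0882 for Cyp2e1, -2.24 to 6.71 for Cyp1a2, -0.0121 to 0.179 for Slc1a2, -0.210 to 0.41 for Axin2, -1.03 to 1.88 for Cyp2f2, -0.0855 to 0.0237 for Gls2 and -0.0441 to 0.167 for Sds. Thresholds of 0.7 and 0.3 counted 241 genes and 1 marker (Glul), and 0 to 1 markers passed 0.8 or 0.2 when each mouse was left out.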

Other observations

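Wide spreads of the B6-allele frequency were also seen in some abundant zonated genes outside the 10 markers. Such spreads were not particular to zonated genes. Over all genes with a frequency, 216 of 3632 (5.95%) ranged over at least 0.25, and most genes below the coordinates described above did. Ass1, an enzyme of the urea cycle, had frequencies of 0.534 and 0.501 in the MSM-mother mice and 0.99983 and 0.518 in the B6-mother mice, so that a single mouse stood apart. Igfbp2, a periportal binding protein of insulin-like growth factors, had 0.111, 1, 0 and 0.778. The pericentral gene Cyp27a1, an enzyme of bile acid synthesis, had 0.222, 1, 0.75 and 0.667. Their mean FPKM was between 179 and 515, and none was called for imbalance (limma, adjusted p of 0.05).

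Among the markers of other cells, Lyve1 of sinusoidal endothelium leaned toward MSM, with frequencies of 0.266, 0.330, 0.254 and 0.270. Pecam1 of the same list leaned toward B6, with 0.540, 0.563, 0.541 and 0.550. Of the 4 sinusoidal markers with a frequency, limma called 1 toward B6 and 1 toward MSM (adjusted p under 0.05, 36.2% of all genes). Csf1r, a macrophage growth factor receptor, leaned toward B6 with 0.602, 0.556, 0.572 and 0.595.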
